A study of Mus musculus with 12 samples.

Results

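The mRNAs of 8 proteins that make, store, release or burn glucose in the liver were followed in mice with and without ATF6a, challenged with tunicamycin or with its vehicle. Tunicamycin (TM) blocks N-linked glycosylation and so causes stress of the endoplasmic reticulum (ER), and ATF6a is a sensor of that stress that is cleaved to release a transcriptional activator. The 8 genes were G6pc, Pck1, Fbp1, Pklr, Gys2, Pygl, Slc2a2 and Slc37a4, chosen by name among the 18193 genes that have a probeset of their own on the array. All 12 probesets that the platform annotation gives to 1 of these 8 genes alone were used, of 45037 probesets tested.

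Livers came from 12 mice, 3 in each of 4 groups, and each mouse had an array of its own. The first group was Atf6a-/- animals given 2 mg/kg TM by intraperitoneal injection in 150 mM dextrose, and the second was wild-type (+/+) animals given the same. The other groups were Atf6a-/- and wild-type animals given the dextrose vehicle alone. All livers were taken 8 h after injection, and the samples were homogenates of the whole liver from mice of varying age and of both sexes. The mice were kept on chow and were fasted for some hours before death. Ages and litters of single animals were not used here. The values are log2 intensities from the authors' RMA summary, so a difference of 1 is a 2-fold change. The brightest probeset of a gene stands for it in counts. A gene was called higher or lower where limma gave a Benjamini-Hochberg adjusted p under 0.05 over all probesets and a change of over 1.5-fold.

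Blood glucose between meals is kept up by the liver. Gluconeogenesis builds glucose from lactate, amino acids and glycerol through phosphoenolpyruvate carboxykinase (Pck1), fructose-1,6-bisphosphatase (Fbp1) and glucose-6-phosphatase (G6pc). The last of these lies in the ER membrane and is fed by the glucose-6-phosphate transporter (Slc37a4), and glucose crosses the hepatocyte membrane through GLUT2 (Slc2a2). In the fed state liver pyruvate kinase (Pklr) completes glycolysis and liver glycogen synthase (Gys2) stores glucose as glycogen, which liver glycogen phosphorylase (Pygl) breaks down again.

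The promoters of 3 of these genes are shown because their mRNAs moved in different ways and because each holds a classical element of glucose control. They are RefSeq windows of build GRCm38.p6, 250 bases before to 50 after the start of transcription, read 5′ to 3′ along the gene. Capitals mark exact matches on either strand to the motifs named in the next paragraph. The G6pc window is chr11:101367466-101367765, the Pck1 window chr2:173152823-173153122, and the Pklr window, the downstream of its 2 annotated starts, chr3:89136373-89136672. All are on the plus strand.
G6pc: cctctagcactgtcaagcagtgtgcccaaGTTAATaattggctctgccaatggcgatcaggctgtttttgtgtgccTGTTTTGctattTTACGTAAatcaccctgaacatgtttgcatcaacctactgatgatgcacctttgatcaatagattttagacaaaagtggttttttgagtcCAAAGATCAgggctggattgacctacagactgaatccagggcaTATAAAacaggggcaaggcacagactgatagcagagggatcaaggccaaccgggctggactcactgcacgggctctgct
Pck1: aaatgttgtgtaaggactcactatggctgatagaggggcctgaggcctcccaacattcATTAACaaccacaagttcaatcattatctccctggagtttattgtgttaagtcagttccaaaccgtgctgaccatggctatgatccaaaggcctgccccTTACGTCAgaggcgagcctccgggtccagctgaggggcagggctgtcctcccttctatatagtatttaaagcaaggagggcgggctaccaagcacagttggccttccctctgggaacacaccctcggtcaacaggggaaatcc
Pklr: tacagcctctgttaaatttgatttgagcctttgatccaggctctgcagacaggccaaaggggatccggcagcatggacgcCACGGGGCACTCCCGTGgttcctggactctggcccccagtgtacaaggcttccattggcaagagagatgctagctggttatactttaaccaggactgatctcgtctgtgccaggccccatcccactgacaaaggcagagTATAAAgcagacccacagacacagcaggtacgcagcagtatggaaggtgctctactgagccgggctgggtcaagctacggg

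The motifs were written with these sequences and earlier results known. A cyclic AMP response element, TTACGTNA, stood at -162 to -155 in the G6pc window and at -93 to -86 in the Pck1 window, counted from the start of transcription, and in 0.898% of all 32851 promoter windows. The insulin response sequence CAAAACA (reverse strand, -174 to -168) stood in the G6pc window and in 6.28% of all windows. The G6pc window also held an HNF4-like CAAAGNNCA at -72 to -64 (6.36% of all windows), and G6pc and Pck1 each held an HNF1-like GTTAAT (7.1% of all windows). In the Pklr window the pattern CACGGG, 5 bases of any kind and CCCGTG, the carbohydrate response element known from liver pyruvate kinase of the rat, lay at -170 to -154 and was found in no other of the 32851 windows. The remaining capitals are TATAAA boxes, which 13.6% of all windows held. None of these motifs overlapped another. The ER stress response element (CCAAT, 9 bases and CCACG), the site of ATF6 in chaperone promoters, was in 0.119% of all windows and the C/EBP-like TTGCGCAA in 0.183%, and neither was in any window of the 7 members that have one. Gys2 is named only. A match is a description of letters and not of a bound site.

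The livers responded to TM. Creld2, a target of ATF6a, averaged 11.08 ± 0.27 in Atf6a-/- TM and 14.23 ± 0.10 in wild-type TM livers, against 9.12 ± 0.33 in Atf6a-/- vehicle and 9.36 ± 0.40 in wild-type vehicle livers (SD, n = 3 each). The chaperone Hspa5 and the transcription factor Ddit3 (CHOP) were called higher with TM in both genotypes. The brightest Atf6 probeset was also higher with TM in Atf6a-/- animals, by 2.82 (adjusted p by limma 4.71e-06). Its differences between the genotypes, Atf6a-/- minus wild-type, were -1.71 with vehicle (adjusted p by limma 0.184) and -0.82 under TM (0.0905), and neither passed. Which part of the transcript it reads was not analysed here, so it was not taken as a check of the deletion. The defining markers of hepatocytes were flat: the mean of 9 of them lay between 13.4 and 13.5 on all 12 arrays, and 0 of 9 were called in any comparison by limma. All but Ass1 had group means of 14.05 to 14.91, near the upper end of the scale, where differences can be compressed. Ass1 had group means of 5.73 to 5.94. The mean of 6 markers of blood cells was 6.14 to 6.32 in Atf6a-/- TM and 6.03 to 6.38 in wild-type TM livers, against 6.85 to 7.17 in Atf6a-/- vehicle and 6.71 to 7.28 in wild-type vehicle livers. Of 8 macrophage markers, 3 were called lower with TM in Atf6a-/- and 0 in wild-type animals, where 8.21% and 6.9% of all genes were. All 8 also had negative changes in wild-type animals (-0.56 to -0.22). By limma 0 of 8 were called between the genotypes under TM or in the interaction of genotype and TM. In homogenate, fewer cells of a type and less RNA per cell cannot be told apart, and the part of these cells in the results was not tested. Each group held 1 array with signal from the Y-linked gene Eif2s3y (8.21 to 8.98, against 3.04 to 3.44 on the others). These were Atf6a-/- TM replicate 2, wild-type TM replicate 1, Atf6a-/- vehicle replicate 3 and wild-type vehicle replicate 2.

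**Figure D1:**
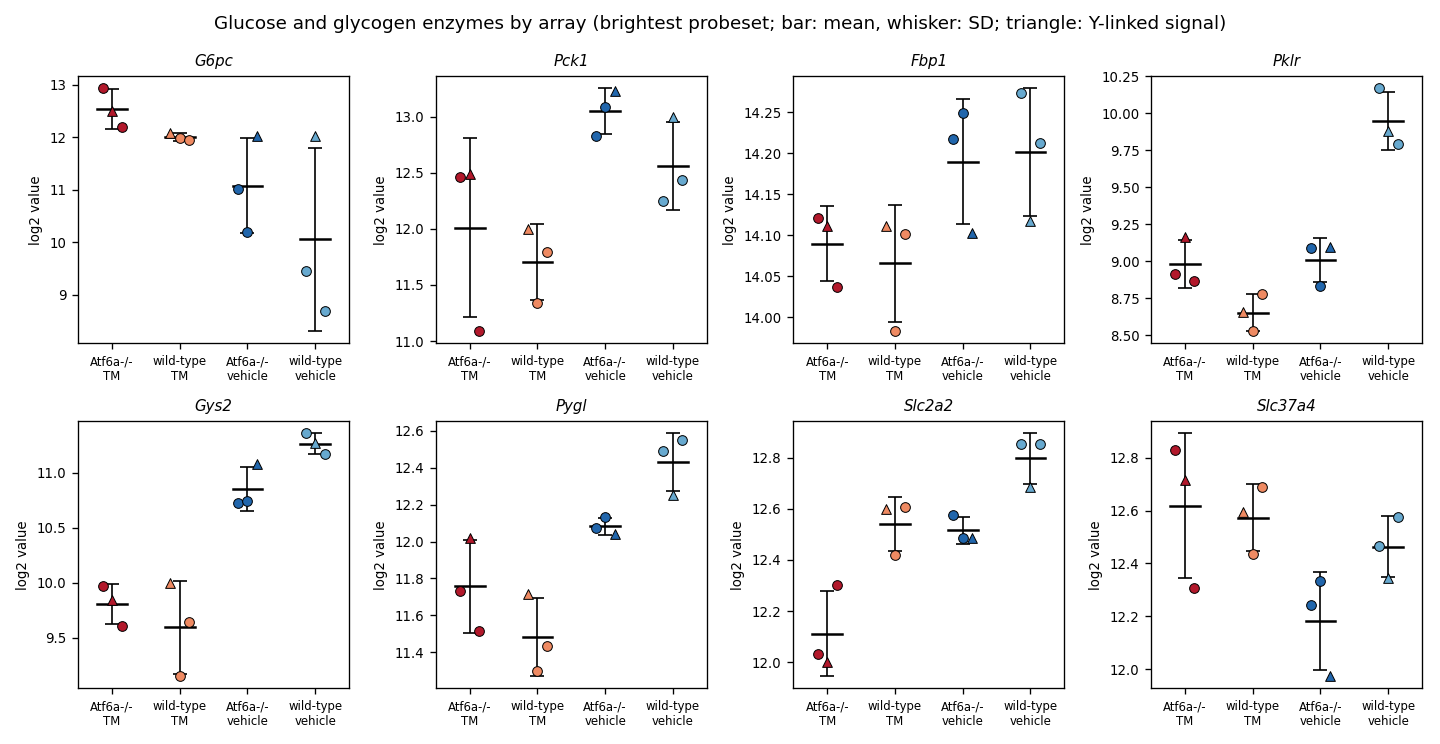
Log2 value of the brightest probeset of each of the 8 genes (y axis) on each array, by group (x axis). Points are animals, triangles the 4 arrays with Y-linked signal, bars the mean and whiskers the SD of 3 animals. G6pc spread widely with vehicle (8.68 to 12.02) and little with TM (11.94 to 12.94), while Pklr stood apart in the wild-type vehicle group (9.79 to 10.17).

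Glycogen synthase mRNA was lower with TM in both genotypes. Pck1 passed the test as lower in Atf6a-/- animals, and glycogen phosphorylase and pyruvate kinase in wild-type animals. With TM in Atf6a-/- animals 2 of the 8 genes, Pck1 and Gys2, were called lower and 0 higher by limma, where 8.21% and 13.1% of all genes were. With TM in wild-type animals 3 of 8, Pklr, Gys2 and Pygl, were called lower and 0 higher, where 6.9% and 8.92% of all genes were. At an unadjusted p under 0.05 and the same fold, 1 of the 8 was higher in each genotype, which was G6pc, and by the methods' t-test 0 were. The share of all genes at that unadjusted threshold was not counted here. The median change of the 8 was -0.21 in Atf6a-/- and -0.55 in wild-type animals on the log2 scale, beside medians of all genes of -0.10 and -0.06. Both comparisons have vehicle and TM animals of their own.

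Among the enzymes that make glucose, G6pc was the most variable. Its log2 values (1417880_at) were 12.94, 12.50 and 12.19 in the Atf6a-/- TM livers and 12.08, 11.99 and 11.94 in the wild-type TM livers. With vehicle they were 11.02, 10.19 and 12.02 in Atf6a-/- and 9.45, 12.02 and 8.68 in wild-type livers. All 6 TM animals were high and close together, and the vehicle animals were spread over more than 3 log2 units. The TM and vehicle groups did not overlap in Atf6a-/- animals and overlapped in wild-type animals. The change with TM was 1.46 in Atf6a-/- (95% confidence interval 0.01 to 2.91, adjusted p by limma 0.125) and 1.95 in wild-type animals (0.50 to 3.40, adjusted p 0.0639), and neither passed the test.

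The vehicle animal with the highest G6pc value was, in each genotype, the array with Y-linked signal. On the 4 arrays with that signal G6pc was 12.08 to 12.50 with TM and 12.02 in both vehicle livers. On the other 8 arrays it was 11.94 to 12.94 with TM and 8.68 to 11.02 with vehicle, so the groups did not overlap there. Without the 4 arrays with Y-linked signal, a choice made after the values were seen, the change was 1.96 in Atf6a-/- (adjusted p by limma 0.00177) and 2.90 in wild-type animals (0.000238). Leaving out wild-type vehicle replicate 2 alone gave 2.94 in wild-type animals (adjusted p 0.000326), and brought G6pc past the test in Atf6a-/- animals as well (1.46, 0.01). With terms for the Y-linked signal and for its product with TM beside the 4 group means, also chosen after the values were seen, the response of G6pc to TM was 2.16 log2 units smaller on the arrays with that signal (-2.16, 95% interval -3.21 to -1.10), which did not pass over all probesets (adjusted p by limma 0.102). Wild-type vehicle replicate 2 stood apart in other genes as well. Its muscle genes Acta1 (7.89, against 5.24 to 5.76 on the other 11 arrays) and Ckm (6.42, against 5.09 to 5.52) were high, as was Hspa5 (13.16, against 12.32 to 12.93 in the other vehicle livers), and their part in the result was not tested. G6pc3, the glucose-6-phosphatase of other tissues, did not pass in any comparison (0.16 and 0.13 with TM in Atf6a-/- and wild-type animals).

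Ppp1r3b, the subunit that brings protein phosphatase 1 to glycogen in the liver, had a vehicle pattern like that of G6pc. Its values were 11.99, 11.74 and 12.09 in Atf6a-/- TM and 11.27, 11.78 and 11.81 in wild-type TM livers, against 10.02, 9.81 and 10.97 in Atf6a-/- vehicle and 9.34, 11.18 and 9.53 in wild-type vehicle livers. The high vehicle values were again those of the arrays with Y-linked signal, on which the response to TM was smaller by the same model (-1.81, 95% interval -2.27 to -1.36, adjusted p by limma 0.0042). The model was read for Ppp1r3b with these values already seen, so that p-value is no test of the pattern. Of all probesets 142 passed in this term, and each group held only 1 array with the signal. Unlike G6pc it was called higher in both genotypes, by 1.67 in Atf6a-/- (adjusted p by limma 0.00944) and by 1.60 in wild-type animals (0.0168). The wild-type call was lost without wild-type TM replicate 2 (adjusted p 0.0614) or 3 (0.0621) and without wild-type vehicle replicate 1 (0.0781) or 3 (0.0711).

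Pck1, the cytosolic enzyme that commits oxaloacetate to gluconeogenesis, went the other way. Its values (1423439_at) were 12.46, 12.49 and 11.09 in Atf6a-/- TM livers, against 12.83, 13.09 and 13.23 in Atf6a-/- vehicle livers. In wild-type animals they were 11.99, 11.34 and 11.79 with TM, against 12.25, 13.00 and 12.43 with vehicle. TM and vehicle groups did not overlap in either genotype, and replicate 3 of the Atf6a-/- TM group lay far below the others. The change was -1.04 in Atf6a-/- (standard error 0.33, adjusted p by limma 0.0332), a fold of 0.487, and -0.85 in wild-type animals (0.33, adjusted p 0.101), which did not pass. The genotypes did not differ in this response by limma (-0.18, 95% interval -1.20 to 0.83, adjusted p 0.938). Without Atf6a-/- TM replicate 3 the change in Atf6a-/- animals was -0.58 (adjusted p 0.1), and the wild-type change passed (adjusted p 0.012). The call in Atf6a-/- animals was also lost without Atf6a-/- vehicle replicate 1 (-1.15, adjusted p 0.0512), replicate 2 (-1.02, 0.0868) or replicate 3 (-0.95, 0.0932).

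The probeset 1439617_s_at of Pck1 gave -1.09 in Atf6a-/- and -0.98 in wild-type animals, and neither change passed the test. The dimmest, 1455209_at, lay between 3.44 and 4.98, below the median of all probesets on all 12 arrays, at a level where no signal above background can be assumed. Pck2, the mitochondrial isoenzyme, was higher in both genotypes. It measured 8.58, 8.51 and 8.42 in Atf6a-/- TM and 7.36, 8.13 and 8.05 in wild-type TM livers, against 6.30, 6.93 and 6.61 in Atf6a-/- vehicle and 6.92, 7.19 and 7.25 in wild-type vehicle livers. The change was 1.89 in Atf6a-/- (adjusted p by limma 2.13e-05) and 0.72 in wild-type animals (0.023), and the difference between the genotypes, 1.17, did not pass (0.0747). The wild-type call was lost without wild-type TM replicate 2 (adjusted p 0.103) or 3 (0.0953) or wild-type vehicle replicate 1 (0.0937).

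Fbp1, which removes a phosphate from fructose 1,6-bisphosphate, was the steadiest of the 8. It averaged 14.09 ± 0.05 in Atf6a-/- TM and 14.07 ± 0.07 in wild-type TM livers, against 14.19 ± 0.08 in Atf6a-/- vehicle and 14.20 ± 0.08 in wild-type vehicle livers (SD, n = 3 each). The change with TM was -0.10 in Atf6a-/- (95% interval -0.28 to 0.08) and -0.14 in wild-type animals (-0.32 to 0.05). All of its values lay between 13.98 and 14.27, near the upper end of the scale of RMA values, where differences can be compressed. Its muscle paralog Fbp2 lay between 4.57 and 5.19 and was not called.

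Pklr, the pyruvate kinase of hepatocytes, was the only member whose response to TM was called different between the genotypes. Its values (1438711_at) were 8.91, 9.16 and 8.86 in Atf6a-/- TM and 8.66, 8.53 and 8.78 in wild-type TM livers. With vehicle they were 9.09, 8.84 and 9.10 in Atf6a-/- livers, against 10.17, 9.88 and 9.79 in wild-type livers. The wild-type vehicle livers stood above the other 9, and the TM and vehicle groups of Atf6a-/- animals overlapped. In Atf6a-/- animals the change with TM was -0.03 (95% interval -0.30 to 0.25, adjusted p by limma 0.896). In wild-type animals it was -1.29 (standard error 0.13, adjusted p 1.87e-05), a fold of 0.408. The difference between the 2 responses, Atf6a-/- minus wild-type, was 1.27 (standard error 0.18, 95% interval 0.88 to 1.66, adjusted p 0.00515), so 1 of 8 members was called higher in this interaction and 0 lower, where 1.06% and 0.748% of all genes were.

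The other Pklr probesets ran the same way. By 1421258_a_at the change was 0.07 in Atf6a-/- and -1.23 in wild-type animals (adjusted p by limma 0.000241), and the difference of 1.30 passed (0.0215). By 1421259_at it was 0.10 in Atf6a-/- and -0.79 in wild-type animals (0.00488), and the difference of 0.89 did not pass (0.109). In order, Pklr was highest in wild-type vehicle livers, then almost level in Atf6a-/- vehicle and Atf6a-/- TM livers, and lowest in wild-type TM livers. The vehicle groups did not overlap, 8.84 to 9.10 in Atf6a-/- and 9.79 to 10.17 in wild-type livers, but the difference of -0.94 (95% interval -1.22 to -0.66) did not pass over all probesets (adjusted p 0.184). Without wild-type vehicle replicate 2 it did (-0.97, adjusted p 0.0394).

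**Figure D2:**
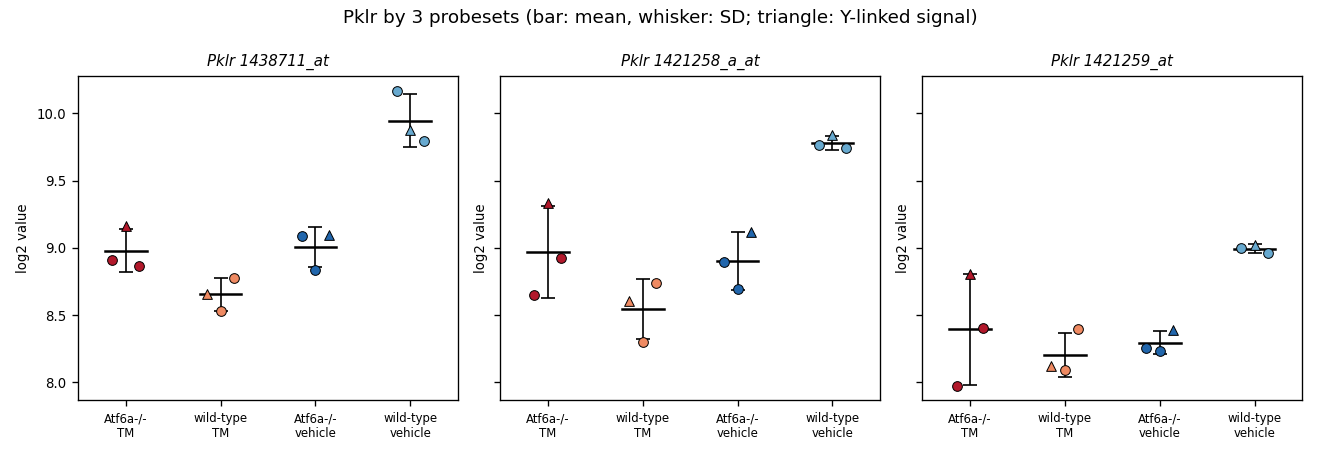
Log2 values (y axis) of the 3 probesets of Pklr on each array by group (x axis), with the mean and the SD of 3 animals as bars and whiskers and the arrays with Y-linked signal as triangles. By each probeset the lowest wild-type vehicle animal (9.79, 9.74 and 8.96) lay above every animal of the other groups, the highest of which measured 9.16, 9.33 and 8.80.

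Pkm, the pyruvate kinase of most other cells, was lower by 0.53 and 0.48 with TM in Atf6a-/- and wild-type animals (adjusted p by limma 0.00971 and 0.0237), under the fold that a call needs. Its values of 6.57 to 6.81 with TM, against 6.96 to 7.47 with vehicle, did not overlap. Srebf1, the transcription factor that drives lipogenic and glycolytic genes after feeding, shared with Pklr a positive difference between the genotypes (1.59, adjusted p 0.0293). It fell to 9.37, 9.53 and 8.96 in Atf6a-/- TM livers, against 11.70, 11.48 and 10.94 in Atf6a-/- vehicle livers, and to 7.99, 7.88 and 7.79 in wild-type TM livers, against 11.74, 11.12 and 11.84 in wild-type vehicle livers. The call of that difference was lost without Atf6a-/- TM replicate 1 or 2, wild-type TM replicate 2 or 3, Atf6a-/- vehicle replicate 2 or 3, or wild-type vehicle replicate 1 or 3 (differences of 1.38 to 1.65, adjusted p 0.0521 to 0.0853).

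Of the glycogen enzymes, Gys2 was lower with TM in both genotypes and Pygl passed in wild-type animals. Gys2 measured 9.97, 9.84 and 9.61 in Atf6a-/- TM livers, against 10.73, 10.74 and 11.08 in Atf6a-/- vehicle livers. In wild-type animals it measured 10.00, 9.15 and 9.64 with TM, against 11.36, 11.27 and 11.17 with vehicle. The groups did not overlap in either genotype. The change was -1.04 in Atf6a-/- (standard error 0.18, adjusted p by limma 0.001) and -1.67 in wild-type animals (0.18, 4.46e-05), folds of 0.486 and 0.315. The difference between these responses was 0.63 (95% interval 0.06 to 1.19) and did not pass (adjusted p 0.377).

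Pygl measured 11.73, 12.02 and 11.52 in Atf6a-/- TM livers, against 12.07, 12.13 and 12.04 in Atf6a-/- vehicle livers, and 11.72, 11.30 and 11.43 in wild-type TM livers, against 12.49, 12.25 and 12.55 in wild-type vehicle livers. In Atf6a-/- animals the groups were separated by 0.02 at the closest, and in wild-type animals by 0.53. The change with TM was -0.32 in Atf6a-/- animals (standard error 0.14, adjusted p by limma 0.108), which did not pass, and -0.95 in wild-type animals (0.14, adjusted p 0.000453). The difference of 0.62 (95% interval 0.19 to 1.05) did not pass either (adjusted p 0.206), so the genotypes are not shown to differ. The decrease of Pygl was smaller on the arrays with Y-linked signal, -0.02 against -0.48 on the others in Atf6a-/- animals. In wild-type animals it was -0.53 against -1.15. By the model used for G6pc this difference was 0.54 (95% interval 0.22 to 0.86), which did not pass over all probesets (adjusted p by limma 0.174). Gys1 and Pygb, the forms of synthase and phosphorylase in other tissues, were lower in Atf6a-/- than in wild-type animals under TM by limma, by 0.71 (log2 fold change -0.71, adjusted p 0.0207) and 0.65 (-0.65, 0.00665). Gys1 measured 6.48 to 6.77 in Atf6a-/- TM and 7.14 to 7.45 in wild-type TM livers. Its call was lost without Atf6a-/- TM replicate 2 or 3 or wild-type TM replicate 1 or 3 (-0.70 to -0.64, adjusted p 0.0621 to 0.0795), and that of Pygb without Atf6a-/- TM replicate 2 (-0.57, adjusted p 0.0239, under the fold). By the mean of its probesets Gys1 was also under the fold (-0.52). With TM against vehicle, Gys1 was called higher in wild-type animals (0.81, adjusted p by limma 0.00263) and not in Atf6a-/- animals (0.08). Pygb was called in neither, with changes of 0.30 in wild-type and -0.30 in Atf6a-/- animals. The differences between these responses did not pass (adjusted p by limma 0.166 for Gys1 and 0.117 for Pygb).

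The transporters changed little. GLUT2 (Slc2a2) measured 12.03, 12.00 and 12.30 in Atf6a-/- TM and 12.60, 12.42 and 12.61 in wild-type TM livers, against 12.58, 12.49 and 12.49 in Atf6a-/- vehicle and 12.86, 12.68 and 12.86 in wild-type vehicle livers. The change with TM in Atf6a-/- animals was -0.41 (adjusted p by limma 0.0109) and the difference between the genotypes under TM -0.43 (0.0348), folds of 0.755 and 0.742 that fall short of the 1.5-fold a call needs. In wild-type animals the change with TM was -0.26 (adjusted p 0.117). The order of its levels, from wild-type vehicle down through wild-type TM and Atf6a-/- vehicle, which were nearly level at 12.54 and 12.52, to Atf6a-/- TM, was not that of Pklr.

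Slc37a4 measured 12.83, 12.72 and 12.31 in Atf6a-/- TM livers, against 12.24, 12.33 and 11.97 in Atf6a-/- vehicle livers, and 12.60, 12.44 and 12.69 in wild-type TM livers, against 12.47, 12.35 and 12.58 in wild-type vehicle livers. These groups overlapped in both genotypes. The change of 0.44 in Atf6a-/- animals had an adjusted p of 0.0379 by limma and a fold of 1.35, and in wild-type animals it was 0.11 (adjusted p 0.685). Without Atf6a-/- TM replicate 3 the Atf6a-/- change passed (0.59, adjusted p 0.00654). Its relatives Slc37a2 and Slc37a3 were not called, and Slc37a1 was lower in wild-type animals (-0.66, adjusted p 0.0204), a call lost without wild-type TM replicate 2 (0.0763) or 3 (0.0867) or wild-type vehicle replicate 3 (0.064). GLUT1 (Slc2a1), the transporter of most other cells, was higher by 0.48 in Atf6a-/- animals (adjusted p 0.00206), short of the fold, and by 0.88 in wild-type animals (3.59e-05).

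**Figure D3:**
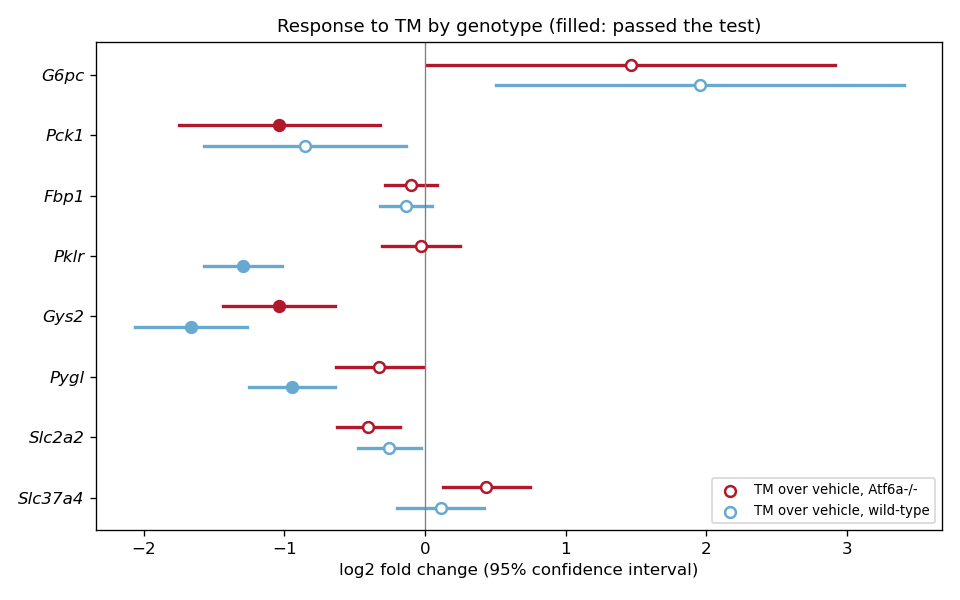
Log2 fold change of TM over vehicle (x axis) in Atf6a-/- and wild-type animals for each gene (y axis), with the 95% confidence interval from limma; filled points passed the test. Gys2 was lower in both genotypes (-1.04 and -1.67), Pck1 in Atf6a-/- animals (-1.04), and Pklr and Pygl in wild-type animals (-1.29 and -0.95).

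Between the genotypes 0 of the 8 genes were called by limma, under TM, where 2.89% of all genes were higher and 1.53% lower in Atf6a-/- animals, and with vehicle, where 0% of all genes were called either way. At an unadjusted p under 0.05 and over 1.5-fold the counts were 0 under TM and 1 with vehicle, which was Pklr, and the methods' t-test without adjustment gave the same counts. For these counts the share of all genes was not counted. With vehicle, however, 5 of the 8 (Pklr, Gys2, Pygl, Slc2a2 and Slc37a4) were lower in all 3 Atf6a-/- than in all 3 wild-type animals, where 3.68% of all genes were. Their differences were -0.94, -0.41, -0.35, -0.28 and -0.28 on the log2 scale, and the last 4 had an adjusted p of 1. The same vehicle animals enter the responses to TM described above. Under TM the genotype differences of Pklr, Gys2 and Pygl were 0.33, 0.21 and 0.27, and none passed.

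Of 100 other genes of glucose metabolism on 5 lists, 87 had a probeset of their own. With TM 12 were higher and 15 lower in Atf6a-/- animals, and 12 were higher and 21 lower in wild-type animals. As shares of the 87 these are 13.8% and 17.2% in Atf6a-/- and 13.8% and 24.1% in wild-type animals, beside the shares of all genes given above. The remaining genes of these lists were not analysed here.

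In gluconeogenesis and glycolysis, 3 of 23 genes were higher and 3 lower in Atf6a-/- animals (13.0% each, against 13.1% and 8.21% of all genes). In wild-type animals 3 were higher and 2 lower (13.0% and 8.70%, against 8.92% and 6.9% of all genes). Pdk4, the kinase that shuts pyruvate out of the citric acid cycle, was higher by 1.74 in Atf6a-/- and by 2.30 in wild-type animals (adjusted p by limma 0.00497 and 0.0011). Pdhb, a subunit of the pyruvate dehydrogenase that this kinase inhibits, was also higher, by 1.53 and 1.08. Tpi1 and Ldha, the triose phosphate isomerase and a lactate dehydrogenase subunit, were lower in both genotypes, by between 0.73 and 1.02 (Tpi1 -1.02 and -0.84, Ldha -0.85 and -0.73 in Atf6a-/- and wild-type animals).

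In glycogen metabolism, 4 of 19 genes were higher and 2 lower in Atf6a-/- animals (21.1% and 10.5%, against 13.1% and 8.21% of all genes). In wild-type animals 6 were higher and 3 lower (31.6% and 15.8%, against 8.92% and 6.9% of all genes). Stbd1, a protein that binds glycogen, was higher by 2.13 in Atf6a-/- and by 1.53 in wild-type animals (adjusted p by limma 2.03e-06 and 3.19e-05). Pgm1, which interconverts glucose phosphates on the way to and from glycogen, was lower by 0.90 and 0.85 (-0.90 and -0.85), whereas Pgm2 was higher by 1.09 and 0.75. The wild-type call of Pgm2 was lost without wild-type TM replicate 1 or 2 or wild-type vehicle replicate 1 or 2 (adjusted p 0.0578 to 0.09). Phosphorylase kinase, which switches on glycogen phosphorylase, split: its regulatory subunit Phka2 was lower in both (-1.12 and -0.85), though by the mean of all its probesets the wild-type change was -0.43, short of the fold. Its catalytic subunit Phkg2 measured 8.91, 8.73 and 8.69 in Atf6a-/- TM and 10.37, 10.48 and 10.28 in wild-type TM livers, against 8.09, 8.30 and 8.28 in Atf6a-/- vehicle and 8.08, 8.23 and 8.35 in wild-type vehicle livers. It was higher by 0.55 in Atf6a-/- animals, under the fold of a call, and by 2.16 in wild-type animals (8.06e-08), and the difference of -1.60 passed (0.000235).

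Among the pentose phosphate, fructose and galactose genes, 1 of 11 was higher and 2 lower in Atf6a-/- animals. These are 9.09% and 18.2%, against 13.1% and 8.21% of all genes. In wild-type animals 0 were higher and 4 lower (0% and 36.4%, against 8.92% and 6.9% of all genes). Tkfc, the kinase of glyceraldehyde in fructose breakdown, moved in opposite directions. It measured 10.40, 9.96 and 9.70 in Atf6a-/- TM livers, against 9.32, 9.12 and 9.32 in Atf6a-/- vehicle livers, and 9.14, 9.12 and 8.81 in wild-type TM livers, against 10.08, 9.88 and 9.64 in wild-type vehicle livers. The changes of 0.77 and -0.84 both passed (adjusted p by limma 0.00483 and 0.00389), as did their difference of 1.61 (0.00725). Without Atf6a-/- TM replicate 1 the Atf6a-/- change was 0.58, just short of the fold (adjusted p 0.0178). Galm, the mutarotase of galactose, was lower in both genotypes (-0.94 in wild-type animals), Taldo1 in Atf6a-/- animals (-0.62), and H6pd and Tkt in wild-type animals (-1.15 and -0.65; Tkt by the mean of its probesets -0.44, short of the fold). Taldo1 fell short of the fold without Atf6a-/- TM replicate 1 or 3 or Atf6a-/- vehicle replicate 3 (-0.55 to -0.54). Among 10 transporters, 0 were higher and 1 lower in Atf6a-/- animals (0% and 10%, against 13.1% and 8.21% of all genes). In wild-type animals 1 was higher and 2 lower (10% and 20%, against 8.92% and 6.9% of all genes). Slc2a9, a carrier of urate, was lower in both (-1.19 and -1.31), and Slc2a8 was lower in Atf6a-/- than in wild-type animals under TM (-0.76, 0.00822; without wild-type TM replicate 2 -0.69, 0.0501).

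Of 24 hormonal and transcriptional regulators, 4 were higher and 7 lower in Atf6a-/- animals (16.7% and 29.2%, against 13.1% and 8.21% of all genes). In wild-type animals 2 were higher and 10 lower (8.33% and 41.7%, against 8.92% and 6.9% of all genes). Ppargc1a (PGC-1a), the coactivator of gluconeogenic genes, measured 5.06, 4.13 and 4.09 in Atf6a-/- TM and 3.95, 4.55 and 4.88 in wild-type TM livers, against 7.63, 7.60 and 7.12 in Atf6a-/- vehicle and 7.76, 6.69 and 7.62 in wild-type vehicle livers. The changes were -3.03 and -2.90 (adjusted p by limma 2.68e-05 and 5.59e-05). With TM this probeset lay near or below the median of all probesets (4.98 to 5.11 by array), which limits the size of the decreases. Cebpa, a liver transcription factor that acts on Pck1, was lower by 0.86 and 1.13 (-0.86 and -1.13), and Foxa2 by 0.91 and 1.73 (-0.91 and -1.73). Foxo1, which insulin holds in check, changed by less than 1.5-fold in Atf6a-/- animals (-0.46) and was lower in wild-type animals (-0.66; without wild-type TM replicate 1 -0.57 and by the mean of its probesets -0.47, both short of the fold). Ppargc1b was lower in wild-type animals (-1.80).

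The regulators that were higher included genes induced by stress and fasting. Trib3, a pseudokinase that binds AKT, measured 13.64, 13.65 and 13.47 in Atf6a-/- TM and 13.13, 12.55 and 12.70 in wild-type TM livers, against 7.19, 7.85 and 6.82 in Atf6a-/- vehicle and 8.26, 6.13 and 8.71 in wild-type vehicle livers. Its changes were 6.30 and 5.10 (adjusted p by limma 2.75e-06 and 1.92e-05). Igfbp1, a secreted protein that insulin suppresses, was higher by 2.47 and 2.30 (0.00472 and 0.0106). In wild-type animals it measured 13.65, 13.05 and 13.43 with TM, against 12.14, 9.30 and 11.80 with vehicle. Without wild-type vehicle replicate 2, the low one, the wild-type change was 1.41 (adjusted p 0.00112), and by the methods' t-test it did not pass, with or without adjustment. Hnf4a, the nuclear receptor of hepatocytes to whose motif the G6pc window holds a match, was higher by 0.94 in Atf6a-/- animals (0.000603) and by 0.36 in wild-type animals, which did not pass (0.145). Cebpb was higher in Atf6a-/- animals (0.84) and was also higher there than in wild-type animals under TM (0.90, 0.0093).

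**Figure D4:**
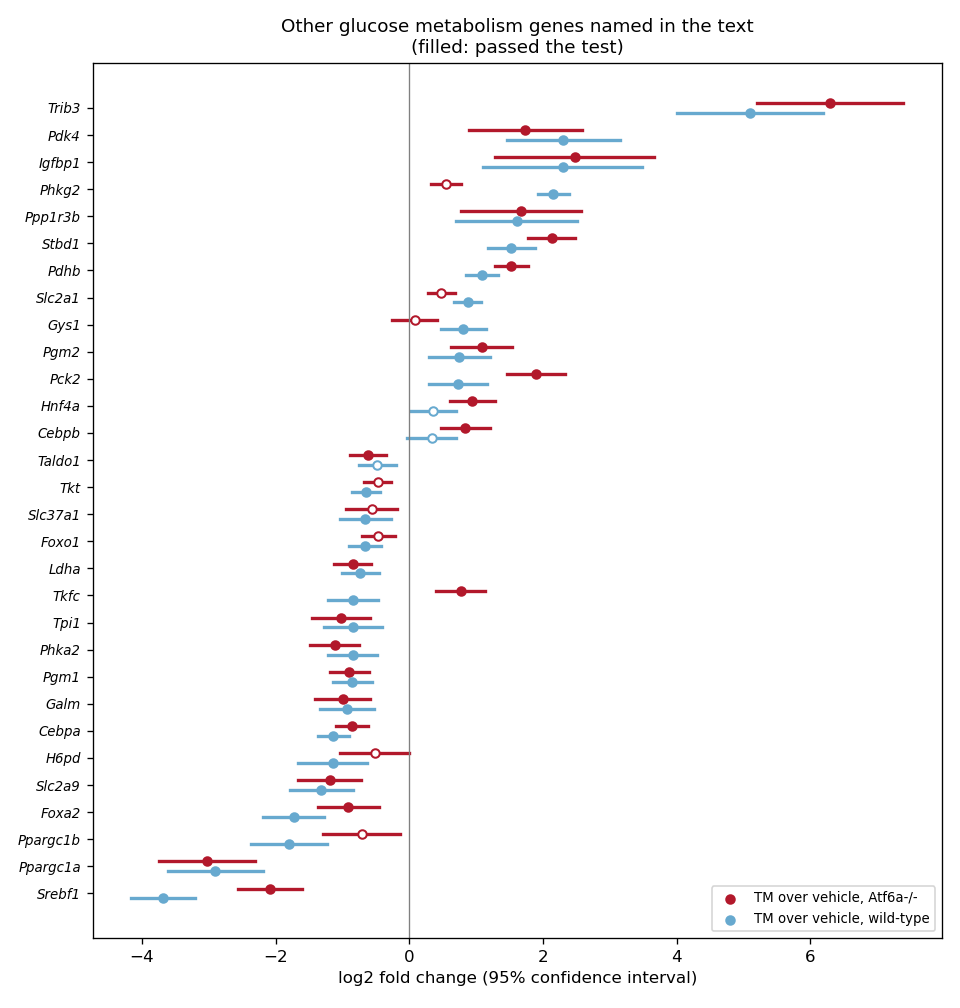
Log2 fold change of TM over vehicle (x axis) in Atf6a-/- and wild-type animals for 30 other genes of glucose metabolism (y axis). These are the genes named by the rule given under processing that passed in at least 1 of the genotypes. Further genes of the 5 lists passed and are not shown. The order is that of the wild-type change, with the 95% confidence interval from limma, and filled points passed. Trib3 (6.30 and 5.10) lay at the top and Srebf1 (-2.09 and -3.68) at the bottom, and Tkfc (0.77 and -0.84) passed in opposite directions.

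Between the genotypes under TM, 6 of the 87 genes were higher and 4 lower in Atf6a-/- animals, or 6.9% and 4.6%, against 2.89% and 1.53% of all genes. All of the regulators among them were higher, which were Srebf1 (1.40), Ppargc1b (1.07), Cebpb (0.90), Foxa2 (0.81) and Irs1 (0.72), and the other was Tkfc. The call of Ppargc1b was lost without any 1 of the Atf6a-/- TM animals, wild-type TM replicate 1 or 2, or Atf6a-/- vehicle replicate 1 (adjusted p 0.0613 to 0.152). That of Foxa2 was lost without any 1 of 10 of the 12 arrays (0.0502 to 0.162), all but Atf6a-/- vehicle replicates 1 and 3. That of Cebpb was lost without wild-type TM replicate 2 (0.0554), and with that array left out 3 of the 6 remained. Irs1 fell short of the fold without Atf6a-/- TM replicate 2, its highest value (10.32, against 9.74 and 10.03 in the other Atf6a-/- TM livers). The 4 lower genes were Phkg2 (-1.60), Slc2a8, Gys1 and Pygb. With vehicle 0 of 87 were called by limma, and 2 were lower at an unadjusted p under 0.05 and over 1.5-fold, as they were by the methods' t-test. How many of all genes pass at that unadjusted threshold was not counted here.

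The gene whose values were most like those of each member over the 12 arrays was found by Pearson's r, a description in which arrays of 1 group share their condition. It was 1600020E01Rik for G6pc (r = 0.964), Stard10 for Pck1 (0.959), Dalir for Fbp1 (0.955) and Il17d for Pklr (0.896). It was Tkt for Gys2 (0.980), Aifm1 for Pygl (0.980), Htt for Slc2a2 (0.956) and Insig2 for Slc37a4 (0.895). None of these was another member.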

How the data were processed

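Liver RNA of 12 mice was hybridised to 1-colour Affymetrix arrays, 1 mouse per array. The deposited log2 values were made by the authors with RMA, and the labels' processing notes name affy, RMA and limma without versions. RMA subtracts background, gives the arrays 1 distribution and summarises each probeset, which compresses very bright and very dim values. Of 45101 probesets, 64 controls were left out and 45037 tested; the annotation names 1 gene for 34945, several for 932 and none for 9160.

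R 4.3.3 and limma 3.58.1 fitted 1 mean per group to all arrays, with eBayes (8 residual and 4.25 prior degrees of freedom), for 5 contrasts. A call needed a Benjamini-Hochberg adjusted p under 0.05 over all probesets and over 1.5-fold. The 8 members are named by every probeset and other genes by the 4 largest called changes of each list and contrast, beside fixed paralogs, regulators and checks. Irs1 was named after its values were seen. The members and lists were chosen with earlier results of these data known. The fit was tested on simulated data. Arrays carry no counts, so their number limits the precision. The p-values by limma set a difference against the spread between mice within groups, pooled over the 4 groups and moderated by eBayes. An exact permutation test of 3 against 3 cannot go below 0.1.

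Alternatives tried were cyclic loess or quantile normalization, centring on Btf3 and Ppia (Ppia through a probeset that also names Gm9234), a block for the animal number, sex as a covariate (Y-linked genes minus Xist), bright probesets, no or a 2-fold threshold, trend and robust estimation, only the arrays of a contrast, the methods' t-test, the mean of a gene's probesets, and leaving out each array. Leaving out the 4 arrays that carry Y-linked signal, and terms for that signal and its product with TM, were chosen after seeing the data. Arrays of 34 h were not analysed here. The numbers of the animals are not said to pair them.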

Additional observations from a re-analysis of the deposited data

Results flagged for a closer look

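By limma, 5 genes named above had responses to TM that differed between the genotypes, as the interaction of genotype and TM. The difference, Atf6a-/- minus wild-type, was 1.27 for Pklr, 1.61 for Tkfc and 1.59 for Srebf1, and it was -1.60 for Phkg2 and -2.91 for Creld2 on the log2 scale. Outlying animals within the groups of 3 were looked for only by leaving out each array in turn. The call of Srebf1 was lost without any 1 of the arrays listed for it above (adjusted p by limma 0.0521 to 0.0853). It was also lost with centring on Btf3 and Ppia (0.0516).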

How the results depend on the processing

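No result reversed. Of 1016 values of 40 results on the 8 genes, 986 stayed on their side of the threshold, 10 lost and 20 gained a call. Of 5197 values on other named genes, 5003 stayed, 137 lost and 57 gained one. No result that was called changed sign, and 18 and 138 uncalled values did. The cause of each change was not tested.

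Among the 8 genes, the count higher with TM in Atf6a-/- animals was 1 in place of 0 with sex as a covariate, with no fold threshold, with only the arrays of the contrast and without the 4 arrays with Y-linked signal, and 0 to 1 on leaving out 1 array. The count lower was 1 in place of 2, with Pck1 lost, by trend and robust estimation (adjusted p 0.0625), with only the arrays of the contrast (0.0591) and by the methods' t-test with and without adjustment, and 1 to 2 on leaving out 1 array. In wild-type animals 1 in place of 0, G6pc, was higher with centring on Btf3 and Ppia, sex as a covariate, only bright probesets and without the 4 arrays with Y-linked signal, and 0 to 1 on leaving out 1 array. The 3 lower there were 4, with Pck1 added, with sex as a covariate (adjusted p 0.0339), only the arrays of the contrast (0.0371), averaging the probesets of each gene (0.0325) and the methods' t-test without adjustment, and 2, with Pygl lost, with a 2-fold threshold and by that t-test with adjustment (0.0534). They were 3 to 4 on leaving out 1 array. Under TM 1 in place of 0 was lower in Atf6a-/- than in wild-type animals with no fold threshold, which was Slc2a2. With vehicle 1 in place of 0, Pklr, was lower by the methods' t-test without adjustment, and 0 to 1 on leaving out 1 array. In the interaction 1 was higher under each of 23 settings, leaving out 1 array included. The t-test and the fit to the arrays of 1 contrast were not run for the interaction, which has no pair of groups of its own.

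Of the 87 other genes, the counts with TM in Atf6a-/- animals were 7 higher in place of 12 by the methods' t-test with adjustment, and 23 lower in place of 15 with no fold threshold, 7 with a 2-fold threshold and 7 by that t-test. On leaving out 1 array they were 11 to 14 and 13 to 16. In wild-type animals 7 (2-fold) and 6 (t-test) were higher in place of 12, and 9 (2-fold) and 9 (t-test) lower in place of 21. Under TM 2 (2-fold) and 0 (t-test) were higher in Atf6a-/- than in wild-type animals in place of 6, with 3 to 6 on leaving out 1 array, and 1 (2-fold) and 0 (t-test) lower in place of 4. There, quantile and cyclic loess normalization lost the calls of Ppargc1b (adjusted p by limma 0.0752 and 0.0561) and Foxa2 (0.103 and 0.0699). Centring on Btf3 and Ppia lost that of Gys1 (0.0594). With vehicle 2 in place of 0 were lower by the t-test without adjustment. In the interaction 1 in place of 2 was higher with centring, 1 to 5 on leaving out 1 array (5 without wild-type vehicle replicate 2), and 2 in place of 1 lower with sex as a covariate.

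The animal numbers are not said to pair the mice, and same-numbered mice did not deviate together (median correlations of 0.03, -0.12 and -0.07 for numbers 1, 2 and 3). With the number as a block, 0 of the 8 genes were higher and 2 lower with TM in Atf6a-/- animals, as without it. Of single results, the block took Foxa2 (adjusted p 0.0676) and Ppargc1b (0.0626) out of the calls between the genotypes under TM and brought Pck2 into them there (0.0469) and in the interaction (0.0396), and it changed no other call. Centring moved the median of all probesets with TM to -0.16 in Atf6a-/- and -0.08 in wild-type animals, from -0.09 and -0.04. With 3 mice a group, changes near 1.5-fold pass or fail with 1 animal, and a group left with 2 mice was taken to vary as the others do.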
